A study of Mus musculus with 15 samples.

Results

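The genes described here are 10 members of the NF-kappaB system, chosen by name from the 55335 genes counted in the files. They are the 5 genes of the NF-kappaB subunits (Nfkb1, Nfkb2, Rela, Relb and Rel) and 5 genes of inhibitors, several of which NF-kappaB itself induces (Nfkbia, Nfkbib, Nfkbie, Nfkbiz and Tnfaip3). Nfkbiz is counted with the inhibitors by family, although its product can raise as well as restrain targets of NF-kappaB. All 10 matched 1 gene identifier each, and all 10 passed the filter on low counts that left 13077 genes for testing. Each library held between 70 and 2875 reads of each of them.

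RNA was sequenced from 3 libraries titled MSL2KO and 3 titled MSL2WT, all from cultured mouse pre-B cells. Per the labels, both groups lack SLP65, a product of Blnk that carries pre-B cell receptor signals into the cell. The parental bone marrow cells were subcloned from a single cell and kept in medium with interleukin 7. An Msl2 guide RNA was then electroporated to derive the knockout line. MSL2 is a subunit of the MSL complex, which acetylates lysine 16 of histone H4 through the enzyme MOF. There was 1 line per genotype and the labels do not say that replicates were separate cultures, so a p-value here reflects variation among the 6 libraries that may be purely technical. The comparison set RNA of the knockout line against that of the wt clone.

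NF-kappaB proteins are dimeric transcription factors that inhibitor proteins of the IkappaB family hold in the cytoplasm. Signals from antigen receptors, Toll-like receptors or TNF family receptors activate a kinase complex that marks the inhibitors for destruction, and the freed dimers enter the nucleus. Several of the genes they switch on encode the inhibitors themselves, which closes a negative feedback loop. In the B lineage the pathway is best known for its part in survival, and in pre-B cells for its place downstream of the pre-B cell receptor.

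The binding site of NF-kappaB is short, and letters that match a loose pattern of it lie close to the start of several of these genes. Promoter sequences from RefSeq (build GRCm38.p6, 250 bases before to 50 after each annotated start) were found for 7 of the 10 genes, in 10 windows. The letters GGGNNNTTC, searched on both strands, occurred in 9 of these 10 windows, against 14.0% of 32851 promoter windows of the same length. By gene, 6 of the 7 had a match in some window (Nfkb2, Rela, Rel, Nfkbia, Nfkbie and Tnfaip3), and the share per gene over all genes was not computed. Nfkbib was the gene with a window and no match. Nfkb2 and Tnfaip3 have more than 1 window each, and overlapping windows of Nfkb2 share a match, so the windows are not independent. The narrower GGGANNTTC, each match of which is also a match to the first pattern, was in 3 of the 10 windows (of Nfkb2 and Nfkbia), against 3.94% of all windows. Matches to the letters are a description of the sequence and show no binding. The 60-base stretches below show where the letters lie before the annotated start of 1 window of each of the 6 genes, 5′ to 3′ on the strand of the gene (GRCm38.p6), with each match, read on either strand, in capitals.
Nfkb2, chr19:46304677-46304736, plus strand: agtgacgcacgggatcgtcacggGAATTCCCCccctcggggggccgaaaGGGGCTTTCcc
Rela, chr19:5637419-5637478, plus strand: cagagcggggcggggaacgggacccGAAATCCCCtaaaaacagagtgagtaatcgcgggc
Rel, chr11:23771025-23771084, minus strand: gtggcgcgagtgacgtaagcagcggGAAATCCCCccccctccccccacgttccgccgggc
Nfkbia, chr12:55492648-55492707, minus strand: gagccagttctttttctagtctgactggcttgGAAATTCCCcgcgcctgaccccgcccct
Nfkbie, chr17:45555569-45555628, plus strand: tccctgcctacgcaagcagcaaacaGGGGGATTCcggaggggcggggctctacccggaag
Tnfaip3, chr10:19015411-19015470, minus strand: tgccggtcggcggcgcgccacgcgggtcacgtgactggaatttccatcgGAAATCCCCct
Nfkb2 holds 2 matches within its stretch and the stretches of the other 5 genes hold 1 each. The same windows of Nfkbia and Tnfaip3 hold further matches outside the stretches. These begin 113 and 148 bases before the start, and others lie after it. Other windows of Nfkb2 and Tnfaip3 also hold matches that are not shown. The start of the window is the outermost start of the gene in Rel, Nfkbia, Nfkbie and Tnfaip3. It lies 99 bases inside the RefSeq span of Rela and 3743 bases inside that of Nfkb2, so these stretches precede a start within the gene.

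The genotype tags of all 6 RNA libraries say the opposite of their titles and descriptions. Groups follow the titles, and every direction below depends on them. Msl2 RNA did not settle the question, since it was present in both groups, at 110 ± 9.91 CPM in MSL2KO and 96.3 ± 3.60 CPM in MSL2WT (SD, n = 3 each, edgeR adjusted p 0.302), and counts summed over a gene are blind to a small edit. For Msl2 the MSL2KO libraries lay above the MSL2WT libraries (edgeR unadjusted p 0.0434), as in 9.68% of all tested genes. Total counts ran from 14092278 to 20803227 per library. CPM values are reads scaled to a common library size, with library sizes adjusted by TMM, and 3 reads correspond to between 0.141 and 0.212 CPM. The libraries numbered 2 lay near their own groups but shifted toward the other group. Over 399 genes called from the other 4 libraries alone, on a scale with the mean of MSL2WT replicates 1 and 3 at 0 and that of MSL2KO replicates 1 and 3 at 1, the median position was 0.847 for MSL2KO replicate 2 and 0.162 for MSL2WT replicate 2. Placed likewise by the libraries of the other numbers, MSL2KO replicates 1 and 3 stood at 1.01 and 1.06. MSL2WT replicates 1 and 3 stood at -0.037 and -0.0047. The pre-B label was checked with 12 marker genes, of which 11 were tested. They summed to between 2549 and 2584 CPM in MSL2KO and between 2432 and 2664 CPM in MSL2WT and took in Cd79a (at 182 ± 10.7 CPM in MSL2KO and 181 ± 6.95 CPM in MSL2WT, SD, n = 3 each). Dntt was too low to test. Rag1 had 0, 34 and 0 reads in MSL2WT replicates 1, 2 and 3, against 29, 17 and 9 in MSL2KO replicates 1, 2 and 3. Of 10 myeloid markers the sum was at most 2.18 CPM in any library, with Lyz2, Elane, S100a8 and S100a9 at 0, and the sums of 10 T and NK cell and 6 stroma markers were at most 6.09 and 0.132 CPM. The 9 erythroid and megakaryocyte markers summed to between 132 and 190 CPM in MSL2KO and between 146 and 170 CPM in MSL2WT, nearly all of it Hbb-bt (189, 147 and 130 CPM in MSL2KO, and 167, 143 and 165 CPM in MSL2WT), with Hba-a2 and Pf4 at 0. Of these markers Gata1 was called lower, at 0.235 ± 0.147 CPM in MSL2KO and 1.85 ± 0.310 CPM in MSL2WT (edgeR adjusted p 0.00458). Il7r, the receptor chain of interleukin 7, was the 1 pre-B marker called, at 28.1 ± 11.3 CPM in MSL2KO and 82.0 ± 12.5 CPM in MSL2WT. Of 4 plasma cell markers, 3 were matched by symbol, and Xbp1 was not. The matched ones summed to between 15.4 and 32.3 CPM in MSL2KO and between 33.6 and 41.1 CPM in MSL2WT, with Sdc1 called lower. The part of these differences in the results below was not tested. In RNA of whole cultures, fewer cells that express a gene and less RNA per cell cannot be told apart.

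None of the 10 genes passed the test in either direction. At an adjusted p under 0.05 (edgeR's quasi-likelihood test, Benjamini-Hochberg over all tested genes), 0 of 10 were called, whereas 600 of 13077 tested genes, or 4.59%, were. By direction, 0 of the 10 were higher, against 1.8% of all tested genes, and 0 were lower, against 2.79%. DESeq2 called 1 of the 10, Nfkbiz, as higher, against 793 of 13075 genes (6.07%) in either direction and 2.5% higher. At an unadjusted p under 0.05 there was 1 of 10 in edgeR, also Nfkbiz, against 15.4% of all tested genes. The median log2 fold change of the 10 genes was 0.0019, beside 0.0040 over all tested genes, with 5 values above 0 and 5 below. The 3 MSL2KO libraries lay fully on one side of the 3 MSL2WT libraries for 1 of the 10 genes, against 20.9% of all tested genes. In that gene the MSL2KO libraries were above, as in 9.68% of all tested genes, and in 0 of the 10 were they below, against 11.2%.

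**Figure D1:**
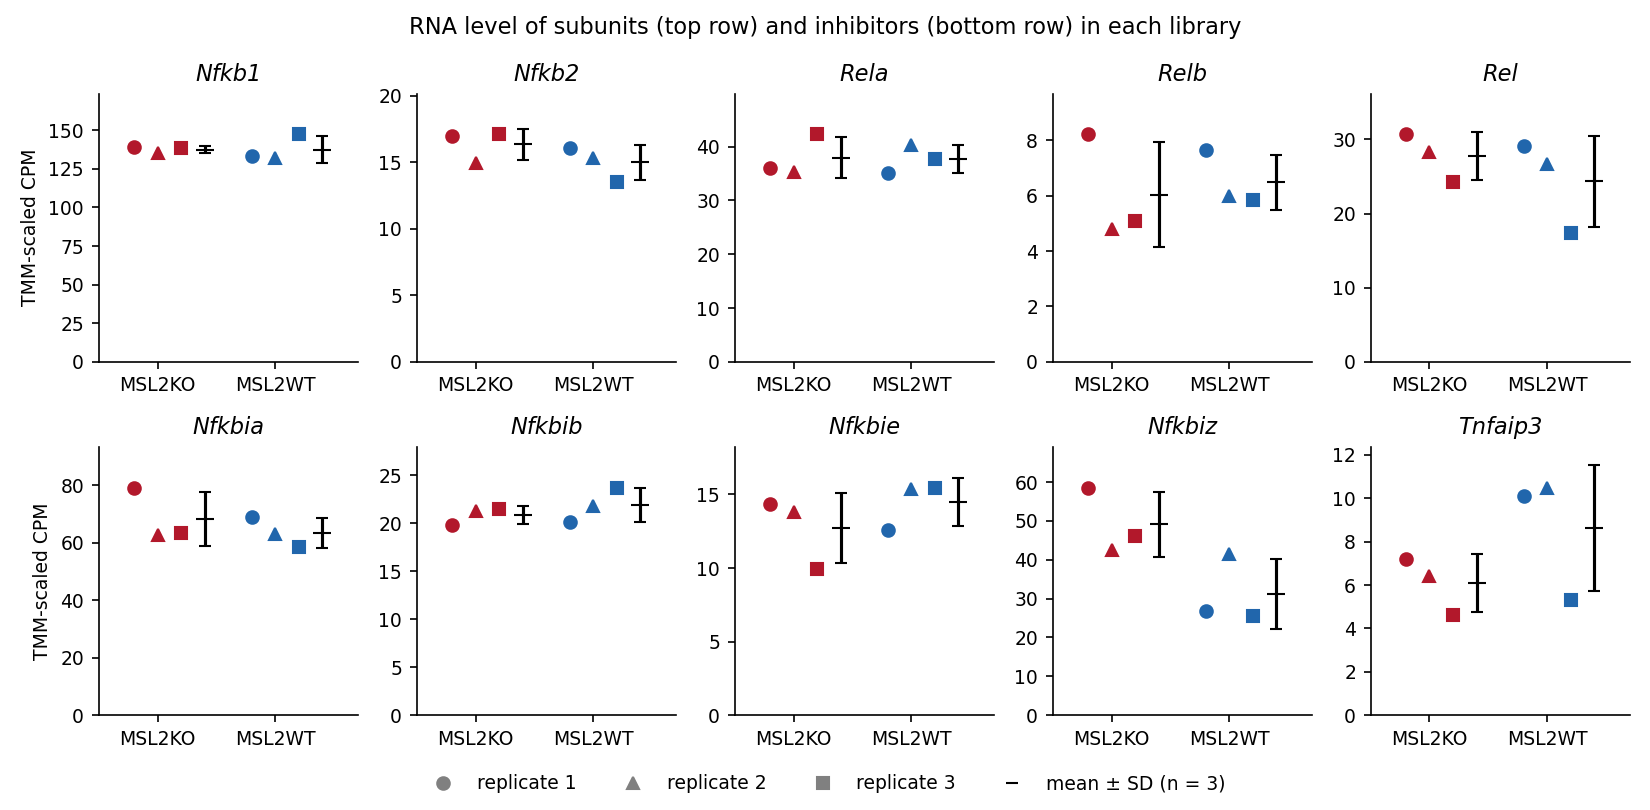
Each panel shows 1 gene, with TMM-scaled CPM on the vertical axis, MSL2KO libraries in red and MSL2WT libraries in blue, marker shapes for the replicate number, and black bars for the mean and SD of 3 libraries. The groups overlap in every panel except Nfkbiz, where MSL2KO replicate 2 (42.5 CPM) lies just above MSL2WT replicate 2 (41.5 CPM).

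Among the subunits, the closest match between the groups was in Nfkb1 (ENSMUSG00000028163.17, chromosome 3, 135584655 to 135691969, mm10), which encodes a long precursor that is processed to a DNA-binding subunit without a transactivation domain. It was at 139, 135 and 139 CPM in MSL2KO replicates 1, 2 and 3, against 133, 132 and 147 CPM in MSL2WT replicates 1, 2 and 3. The MSL2KO values lay inside the range of the MSL2WT values. The means were 137 ± 2.19 CPM in MSL2KO and 137 ± 8.52 CPM in MSL2WT (SD, n = 3 each), and the log2 fold change was -8.5e-05 ± 0.072 (SE), with an edgeR adjusted p of 1.000. Its 95% interval ran from 0.895-fold to 1.12-fold, before any adjustment for the number of genes.

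Rela (ENSMUSG00000024927.8, chromosome 19, 5637442 to 5648134) encodes the main transactivating subunit of the canonical pathway. It was at 36.1, 35.3 and 42.2 CPM in MSL2KO replicates 1, 2 and 3, against 35.1, 40.2 and 37.8 CPM in MSL2WT replicates 1, 2 and 3. The groups overlapped throughout, with a log2 fold change of 0.0039 ± 0.098 (SE, edgeR adjusted p 0.994) and a 95% interval from 0.862-fold to 1.17-fold.

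Rel (ENSMUSG00000020275.9, chromosome 11, 23736847 to 23770969) encodes c-Rel, the transactivating subunit that is typical of lymphocytes. It was at 30.7, 28.3 and 24.2 CPM in MSL2KO replicates 1, 2 and 3, against 29.0, 26.6 and 17.4 CPM in MSL2WT replicates 1, 2 and 3. Replicate 3 was the lowest library of both groups, and the spread within MSL2WT (1.67-fold from highest to lowest) was wider than the difference between the group means. The log2 fold change was 0.19 ± 0.17 (SE, edgeR adjusted p 0.717), and without MSL2WT replicate 3 it was -0.0018.

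Nfkb2 and Relb form the dimer of the non-canonical pathway, which in B cells responds to BAFF and CD40. Nfkb2 (ENSMUSG00000025225.15, chromosome 19, 46300994 to 46312400) was at 17.0, 15.0 and 17.1 CPM in MSL2KO replicates 1, 2 and 3, against 16.1, 15.3 and 13.5 CPM in MSL2WT replicates 1, 2 and 3. Its log2 fold change was 0.12 ± 0.11 (SE, edgeR adjusted p 0.726). Relb (ENSMUSG00000002983.17, chromosome 7, 19606217 to 19629438) was at 8.21, 4.79 and 5.08 CPM in MSL2KO replicates 1, 2 and 3, against 7.63, 5.98 and 5.84 CPM in MSL2WT replicates 1, 2 and 3. Replicate 1 stood above the other libraries in both groups, by up to 1.71-fold in MSL2KO, and the log2 fold change was -0.11 ± 0.23 (SE, edgeR adjusted p 0.909). Leaving out MSL2KO replicate 1 moved the Relb value to -0.39, and leaving out MSL2KO replicate 2 moved it to 0.049. The spans of Nfkb1, Nfkb2 and Nfkbib overlap 1, 2 and 1 other annotated genes, and with no strand setting given, reads of overlapping genes cannot be told apart.

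**Figure D2:**
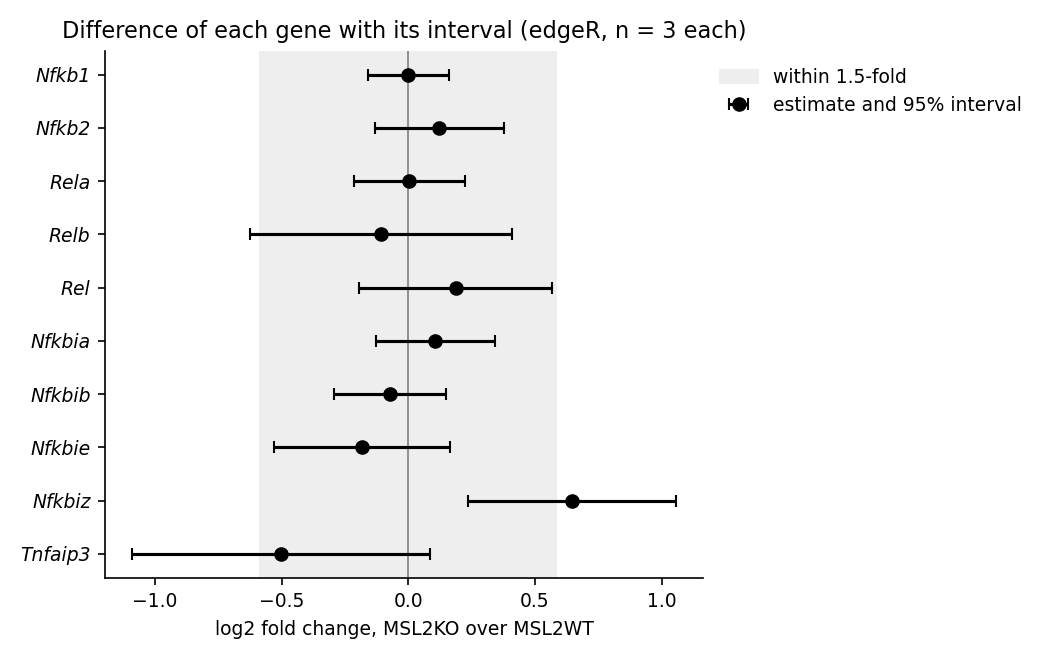
Points give the log2 fold change of MSL2KO over MSL2WT for each of the 10 genes and bars its 95% interval from the edgeR fit on 3 libraries each, not adjusted for the number of genes. The intervals of 7 genes stay within the shaded band of 1.5-fold either way, those of Relb, Nfkbiz and Tnfaip3 do not, and the interval of Nfkbiz alone leaves out 0.

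Of the inhibitors, Nfkbia (ENSMUSG00000021025.8, chromosome 12, 55489409 to 55492647) encodes IkappaB alpha, the classical rapid feedback inhibitor. It was at 79.1, 62.5 and 63.3 CPM in MSL2KO replicates 1, 2 and 3, against 68.8, 62.9 and 58.3 CPM in MSL2WT replicates 1, 2 and 3. Replicate 1 was the highest library of both groups, and the other libraries of the groups overlapped. The log2 fold change was 0.11 ± 0.11 (SE, edgeR adjusted p 0.745), or -0.010 without MSL2KO replicate 1. Its 95% interval ran from 0.915-fold to 1.27-fold.

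Nfkbib (ENSMUSG00000030595.15, chromosome 7, 28758251 to 28766644), the gene of IkappaB beta, was at 19.8, 21.2 and 21.5 CPM in MSL2KO replicates 1, 2 and 3, against 20.1, 21.8 and 23.7 CPM in MSL2WT replicates 1, 2 and 3. The log2 fold change was -0.071 ± 0.099 (SE, edgeR adjusted p 0.841). Nfkbie (ENSMUSG00000023947.8, chromosome 17, 45555700 to 45563169), the gene of IkappaB epsilon, was at 14.4, 13.8 and 9.97 CPM in MSL2KO replicates 1, 2 and 3, against 12.6, 15.3 and 15.5 CPM in MSL2WT replicates 1, 2 and 3. MSL2KO replicate 3 was the lowest of the 6 libraries, and the log2 fold change was -0.18 ± 0.16 (SE, edgeR adjusted p 0.688), or -0.038 without that library.

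Nfkbiz (ENSMUSG00000035356.17, chromosome 16, 55811375 to 55838954) encodes IkappaB zeta, an atypical nuclear member of the family that binds NF-kappaB on chromatin and can raise as well as restrain its targets. It was at 58.6, 42.5 and 46.2 CPM in MSL2KO replicates 1, 2 and 3, against 26.7, 41.5 and 25.4 CPM in MSL2WT replicates 1, 2 and 3. All 3 MSL2KO libraries lay above all 3 MSL2WT libraries, but MSL2WT replicate 2 reached almost the level of MSL2KO replicate 2. The means were 49.1 ± 8.41 CPM in MSL2KO and 31.2 ± 8.95 CPM in MSL2WT (SD, n = 3 each). The log2 fold change was 0.65 ± 0.18 (SE), or 1.57-fold, with an unadjusted p of 0.00557 and an adjusted p of 0.0854 in edgeR, which misses the threshold.

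The call on Nfkbiz turned on MSL2WT replicate 2, on the test and on the filter on low counts. On the scale used above, MSL2WT replicate 2 stood at 0.587 and MSL2KO replicate 2 at 0.626 for this gene. Without MSL2WT replicate 2 the log2 fold change was 0.91 with an edgeR adjusted p of 0.0102. Without both libraries numbered 2 it was 1.01, with an adjusted p of 0.00585 from the 2 remaining libraries of each group. Without any other single library the adjusted p stayed above the threshold, between 0.0733 and 0.257. With all 6 libraries, DESeq2 gave an adjusted p of 0.00752 and limma-voom one of 0.0718. In edgeR with no filter on low counts it was 1.35e-07, though the log2 fold change hardly moved (0.64). The adjusted p of called pathway genes also fell in that setting, for Lta from 0.000755 to 2.87e-61. The value of 1.35e-07 is therefore not read as firmer evidence on Nfkbiz. The log2 fold change was above 0 in all 14 alternatives tried, between 0.50 and 1.01.

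**Figure D3:**
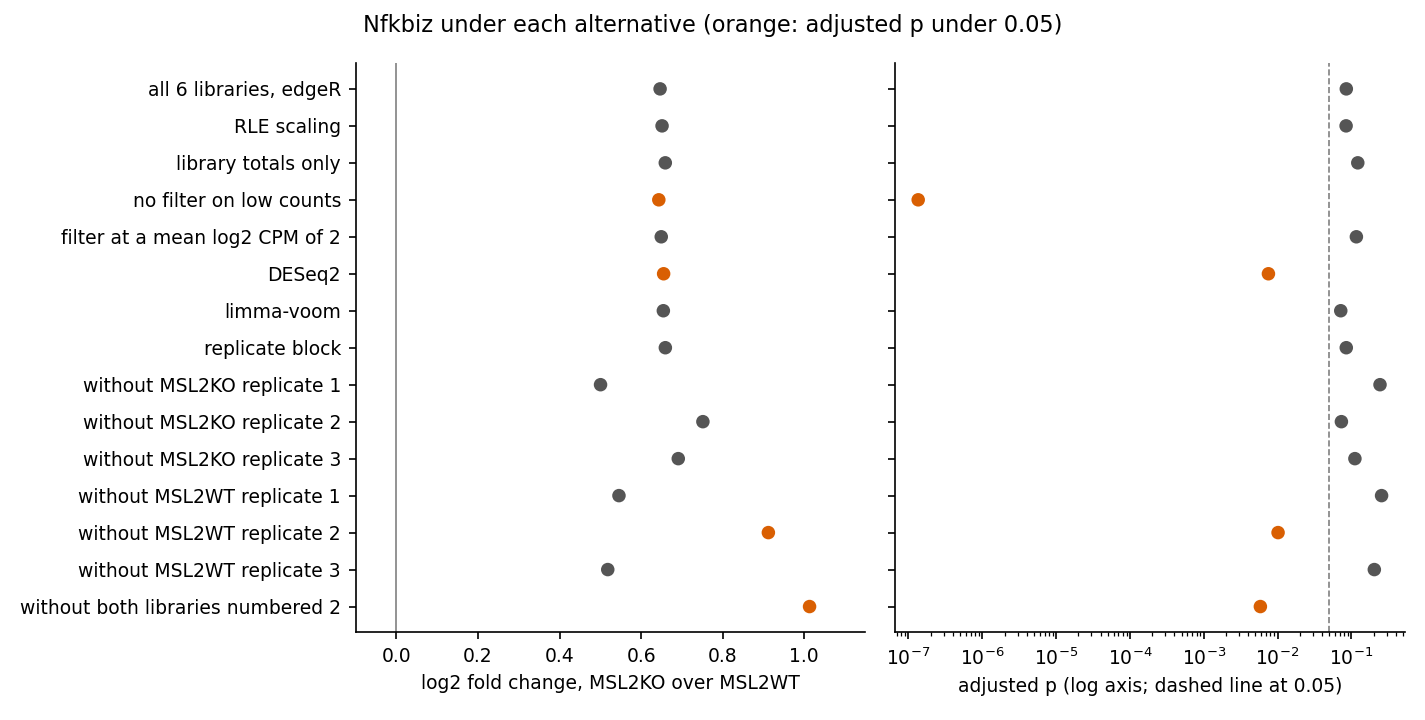
The left panel shows the log2 fold change of Nfkbiz, MSL2KO over MSL2WT, and the right panel its adjusted p on a log axis, for the edgeR test on all 6 libraries and each of 14 alternatives. Orange marks the 4 alternatives with an adjusted p under 0.05: no filter on low counts, DESeq2, without MSL2WT replicate 2 and without both libraries numbered 2.

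Tnfaip3 (ENSMUSG00000019850.11, chromosome 10, 19000910 to 19015410) encodes A20, a ubiquitin-editing enzyme that shuts off signalling upstream of the kinase complex. It was at 7.21, 6.43 and 4.62 CPM in MSL2KO replicates 1, 2 and 3, against 10.1, 10.5 and 5.31 CPM in MSL2WT replicates 1, 2 and 3. As in Rel, replicate 3 was the lowest library of both groups, and MSL2WT replicate 3 lay below MSL2KO replicates 1 and 2. The log2 fold change was -0.50 ± 0.26 (SE) with an unadjusted p of 0.086 and an adjusted p of 0.432 in edgeR. It ran from -0.75 to -0.33 when single libraries were left out, and was -0.75 with an adjusted p of 0.0836 without MSL2WT replicate 3. With blocking by replicate number it was -0.49, with an unadjusted p of 0.0140 and an adjusted p of 0.117 in edgeR. Tnfaip3 was not called in any of the 14 alternatives, with adjusted p from 0.0836 to 0.882 across edgeR, DESeq2 and limma-voom. The 95% interval of Tnfaip3 in the main test, from 0.470-fold to 1.06-fold, was the widest of the 10 genes.

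Genes that act before the subunits were described through a list of 30 kinases, adaptors and activators, of which 29 were tested, with 1 higher, 0 lower and a median log2 fold change of -0.028. Over all tested genes, 1.8% were higher and 2.79% lower. The 3 subunits of the kinase complex were close between the groups. Chuk was at 116 ± 3.50 CPM in MSL2KO and 114 ± 3.49 CPM in MSL2WT, Ikbkb at 101 ± 1.98 CPM in MSL2KO and 106 ± 5.93 CPM in MSL2WT, and Ikbkg, the regulatory subunit, at 56.2 ± 6.09 CPM in MSL2KO and 62.7 ± 1.47 CPM in MSL2WT (SD, n = 3 each, edgeR adjusted p 0.902, 0.742 and 0.472). The called gene was Btrc, which encodes the ubiquitin ligase receptor that recognises phosphorylated IkappaB proteins. Btrc was at 44.9, 42.6 and 39.8 CPM in MSL2KO replicates 1, 2 and 3, against 33.6, 33.0 and 28.6 CPM in MSL2WT replicates 1, 2 and 3, and rose 1.34-fold (log2 0.42 ± 0.094 SE, edgeR adjusted p 0.0322). The groups did not overlap, yet the Btrc call was lost without MSL2KO replicate 1 or 2 or any 1 MSL2WT library (adjusted p from 0.0568 to 0.0964), with library totals only (0.0512) and without both libraries numbered 2 (0.194).

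BCL10 and MALT1 act together between antigen receptors and the kinases. Bcl10 was at 46.2 ± 4.57 CPM in MSL2KO and 51.4 ± 4.35 CPM in MSL2WT (SD, n = 3 each, edgeR adjusted p 0.563). Malt1, which encodes a protease, was at 66.2, 76.2 and 65.5 CPM in MSL2KO replicates 1, 2 and 3, against 91.9, 85.7 and 76.3 CPM in MSL2WT replicates 1, 2 and 3. These groups touch without overlapping, and the log2 fold change of -0.29 ± 0.093 (SE) missed the threshold (unadjusted p 0.0113, edgeR adjusted p 0.134). In the non-canonical branch, Map3k14, the inducing kinase, was at 12.3 ± 1.44 CPM in MSL2KO and 10.4 ± 1.99 CPM in MSL2WT, and Traf3, which targets that kinase for degradation, at 36.8 ± 3.27 CPM in MSL2KO and 31.6 ± 4.61 CPM in MSL2WT (edgeR adjusted p 0.572 and 0.459). Birc3, a ubiquitin ligase that NF-kappaB also induces, was at 32.8 ± 3.23 CPM in MSL2KO and 32.2 ± 1.02 CPM in MSL2WT (edgeR adjusted p 0.946).

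Of 26 other inhibitors of the pathway, 24 were tested, with 0 higher, 1 lower and a median log2 fold change of -0.017. The shares over all tested genes were 1.8% higher and 2.79% lower. Nfkbid, a nuclear relative of Nfkbiz, was at 27.0 ± 3.08 CPM in MSL2KO and 23.9 ± 1.27 CPM in MSL2WT (edgeR adjusted p 0.514). Bcl3, another nuclear member, was not tested and had at most 6 reads in any library. The deubiquitinase genes Cyld and Otulin were at 104 ± 5.48 and 55.6 ± 1.51 CPM in MSL2KO, against 96.9 ± 4.11 and 54.8 ± 7.91 CPM in MSL2WT (edgeR adjusted p 0.615 and 0.968). Tnip1, a partner of A20, was at 34.2 ± 2.94 CPM in MSL2KO and 29.4 ± 1.54 CPM in MSL2WT (unadjusted p 0.0478, edgeR adjusted p 0.318). The called gene was Nlrc3, a NOD-like receptor described in mouse macrophages as a brake on TRAF6 and NF-kappaB. Nlrc3 was at 12.8, 12.5 and 9.31 CPM in MSL2KO replicates 1, 2 and 3, against 24.1, 26.1 and 18.8 CPM in MSL2WT replicates 1, 2 and 3, and fell to 0.503 of the MSL2WT level (log2 -0.99 ± 0.16 SE, edgeR adjusted p 0.00531). This call held in all 14 alternatives.

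Of 35 genes that NF-kappaB induces in B cells or macrophages, 22 were tested, with 2 higher, 2 lower and a median log2 fold change of -0.028. The other 13 did not reach the filter on low counts, among them Cd83, Cd86, Il6 and Ccl5, which had 0 reads in all 6 libraries. Of all tested genes, 1.8% were higher and 2.79% lower. The list was chosen with earlier results of these data known, so it was not tested as a set. Lta, which encodes the cytokine lymphotoxin alpha, was at 28.4, 45.9 and 27.3 CPM in MSL2KO replicates 1, 2 and 3, against 93.6, 105 and 126 CPM in MSL2WT replicates 1, 2 and 3. The groups were far apart, and Lta fell to 0.315 of the MSL2WT level (log2 -1.67 ± 0.19 SE, edgeR adjusted p 0.000755), a call kept in all 14 alternatives. Plek, the gene of the protein kinase C substrate pleckstrin, fell to 86.1 ± 16.6 CPM in MSL2KO, against 147 ± 23.1 CPM in MSL2WT (log2 -0.77 ± 0.14 SE, edgeR adjusted p 0.0119, or 0.0639 without both libraries numbered 2).

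The 2 response genes that rose both encode anti-apoptotic proteins. Bcl2l1, the gene of BCL-XL, was at 85.9, 55.9 and 64.0 CPM in MSL2KO replicates 1, 2 and 3, against 45.2, 40.4 and 42.4 CPM in MSL2WT replicates 1, 2 and 3 (log2 0.68 ± 0.14 SE, edgeR adjusted p 0.0211, lost at 0.0854 without MSL2WT replicate 2 and 0.0574 without MSL2WT replicate 3). Bcl2a1b has near-identical neighbours that could take or give reads, and was at 8.68 ± 0.0347 CPM in MSL2KO and 5.02 ± 0.294 CPM in MSL2WT (edgeR adjusted p 0.0139, lost at 0.0587 without MSL2WT replicate 1 and 0.104 without both libraries numbered 2). Other well-known targets of the pathway did not pass. Icam1, an adhesion molecule, was at 30.5 ± 3.34 CPM in MSL2KO and 29.5 ± 2.81 CPM in MSL2WT (edgeR adjusted p 0.921). Cflar, an inhibitor of caspase 8 activation, was at 34.5 ± 2.08 CPM in MSL2KO and 35.0 ± 5.35 CPM in MSL2WT (edgeR adjusted p 0.972). Traf1, a signalling adaptor counted with the activators, was at 1.14 ± 0.452 CPM in MSL2KO and 1.21 ± 0.189 CPM in MSL2WT (edgeR adjusted p 0.965).

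**Figure D4:**
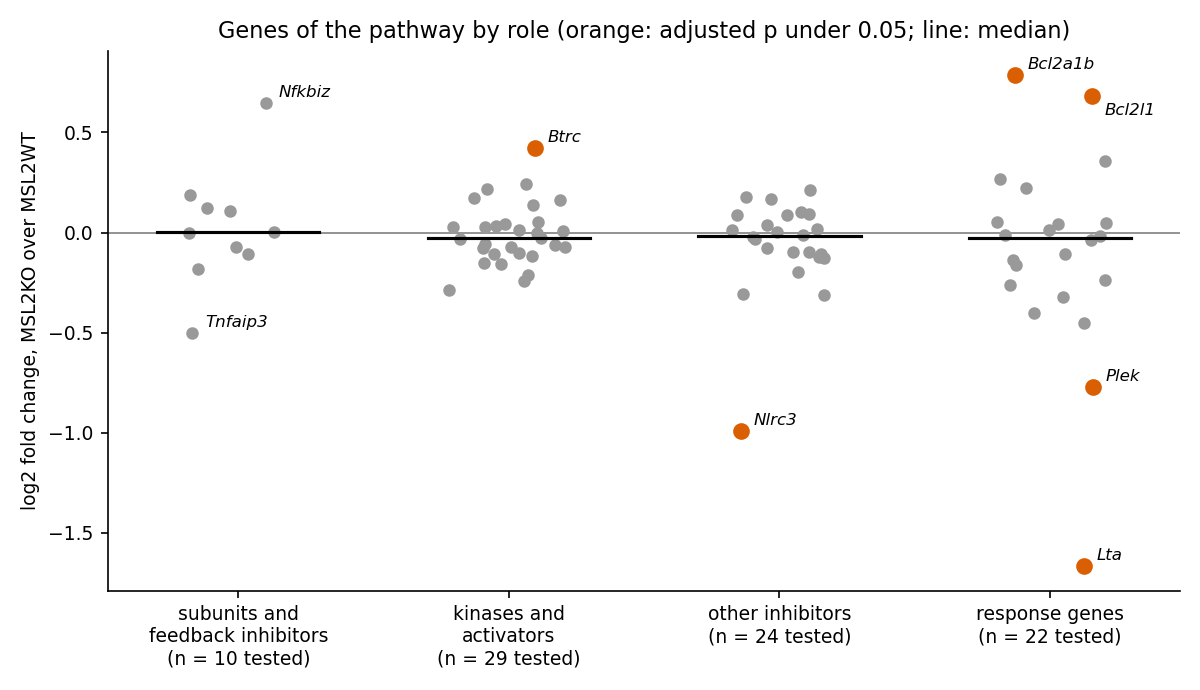
Each point is the log2 fold change of 1 tested gene, MSL2KO over MSL2WT, in the 10 subunits and feedback inhibitors, 29 kinases and activators, 24 other inhibitors and 22 response genes. Black lines mark the medians, all within 0.03 of 0, and orange points the 6 genes with an adjusted p under 0.05, none of them among the 10.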

How the data were processed

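The deposited files hold whole-number read counts per gene, 1 file per RNA library, not normalised by the authors, per the file headers and values. Software listed in the submitters' processing notes comprises STAR 2.5.3a, featureCounts 2.0.0 and limma, beside the build mm10, without stating their roles. The annotation release and strand setting were not given in the sources used here. Groups and replicate numbers come from the titles. Data of the 9 other samples (chromatin precipitation and input) were not used here.

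Identifiers were paired with symbols through a gene table (54587 of 55335 matched), and positions come from RefSeq on GRCm38.p6, the mm10 assembly. Genes kept by edgeR's filterByExpr function (13077) were scaled by TMM and tested with edgeR 4.0.16 (quasi-likelihood, no covariate, R 4.3.3) at an adjusted p under 0.05, and the script was tested on simulated data. SEs come from the fold change and the F statistic, and 95% intervals from that SE. Floors cover counting error only. Counts of replicate pairs differed by more than sampling noise, at 7.29 to 19.8 chi-square units per degree of freedom. Transcript lengths were not used here, so the planned levels per kilobase were not computed and levels are not compared between genes.

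The members and lists were chosen with earlier results of these data known. Named were all 10 genes, Msl2, the called genes of each list (up to 4 per direction) and a set of pathway genes given whatever their values; Blnk, also in that set, is given with the limits. Values of some genes in these sets are not reported here. Alternatives were RLE scaling, library totals, no low-count filter, a mean log2 CPM of at least 2, DESeq2 1.42.0, limma-voom (limma 3.58.1), blocking by replicate number, and omission of each library or of both numbered 2.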

Additional observations from a re-analysis of the deposited data

How the results depend on the processing

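Of 140 values of the 10 genes under 14 alternatives, 120 kept their direction and side of the threshold, 4 (all Nfkbiz) passed it and 16 changed sign while staying uncalled. The count of the 10 genes called higher was 1 with no filter on low counts (Nfkbiz log2 0.64, adjusted p 1.35e-07; 1.81% of all tested genes higher), in DESeq2 (2.5%) and without both libraries numbered 2 (1.36%), and between 0 and 1 without single libraries (1.7% without MSL2WT replicate 2, which gave the 1); the count called lower was 0 throughout. Over all tested genes, 235 were higher and 365 lower of 13077, against 482 and 721 of 26696 with no filter on low counts (1.81% and 2.7%), 327 and 466 in DESeq2, 231 lower of 9635 with genes kept at mean log2 CPM 2 or more, and 224 lower of 12912 without both libraries numbered 2. Without single libraries the counts ran from 138 to 227 higher and from 242 to 316 lower.

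Nfkb1 (log2 -8.5e-05) was at 0.0046 with RLE scaling, 0.021 with library totals only, 0.0047 with genes kept at mean log2 CPM 2 or more, 0.0046 in DESeq2, 0.0016 in limma-voom and 0.0017 with the replicate block. Rela was at -0.00038 with no filter on low counts and -0.0050 in limma-voom. Without single libraries the log2 fold change ran from -0.031 to 0.054 for Nfkb1, -0.078 to 0.062 for Rela, -0.39 to 0.049 for Relb, -0.0018 to 0.33 for Rel, -0.010 to 0.18 for Nfkbia, -0.040 to 0.10 for Birc3, -0.047 to 0.13 for Icam1, -0.11 to 0.11 for Cflar, -0.095 to 0.095 for Otulin and -0.33 to 0.19 for Traf1. Malt1 passed the threshold with no filter on low counts (adjusted p 0.0493). The cause was not tested.

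The numbers were not treated as pairs: deviations of same-numbered libraries correlated at 0.029, 0.21 and 0.40 for replicates 1, 2 and 3 over 13077 genes, and MSL2KO replicate 2 correlated best with MSL2WT replicate 1 (0.27). With the replicate block, 381 genes were higher and 565 lower, and 0 of the 10 in either direction. Blnk was at 112 ± 4.07 CPM in MSL2KO and 98.3 ± 19.0 CPM in MSL2WT (SD, n = 3 each, edgeR adjusted p 0.563), so its RNA does not check the stated loss of SLP65. The 95% intervals of 7 of the 10 genes lay within 1.5-fold either way, and wider ones limit Relb, Nfkbiz and Tnfaip3. Levels per kilobase, and their alternative with the longest transcript, were not run.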

Other observations

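Among the pre-B markers, the kinase gene Blk, singled out after its values were seen, shared with Nfkbiz a raised MSL2WT replicate 2. Rag1, at low counts, also had all its MSL2WT reads in replicate 2 (34 reads, against 0 in replicates 1 and 3). Blk was at 227, 224 and 236 CPM in MSL2KO replicates 1, 2 and 3, against 36.1, 163 and 44.5 CPM in MSL2WT replicates 1, 2 and 3. MSL2WT replicate 2 stood between the groups, while the 3 MSL2KO libraries were level, unlike those of Nfkbiz, and the log2 fold change of 1.49 ± 0.44 (SE) missed the threshold (edgeR adjusted p 0.101).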
